A study of Mus musculus and Homo sapiens with 12 samples.

Results

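H3K18ac and H4K12ac, acetylation of lysine 18 of histone H3 and of lysine 12 of histone H4, were mapped in mouse large intestine by CUT&Tag, with 2 libraries for each mark. These 4 of the 12 samples of the series were chosen by their labels alone. In CUT&Tag an antibody bound to the mark tethers a transposase, which cuts and tags the DNA around it for sequencing. The tissue came from male CETP-ApoB-100 transgenic mice, 2 per condition, and about 30 mg of tissue or 500000 nuclei went into a reaction. These mice carry human lipoprotein genes and are a model for plasma lipids and atherosclerosis, and no animal without the transgenes was compared. All 4 acetyl samples are labelled with a high fat, high sucrose diet and no fibre, whereas the methods of the study describe a later 5% arabinoxylan supplement for the mice on that diet, so the fibre intake of these animals is not settled. The labels do not say whether the libraries of the 2 marks came from the same animals, and where replicates came from is not given beyond their numbers. The tissue is labelled as epithelial colon, but the methods describe the whole dissected large intestine.

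Acetylation of a lysine removes its positive charge, loosens the hold of the histone tail on DNA and offers a docking site to bromodomain proteins. H3K18ac is written mainly by the coactivators p300 and CBP (Ep300 and Crebbp) and is known from active promoters and from distal enhancers, many of which differ between cell types. H4K12ac is carried by newly made H4, where Hat1 places it before deposition, and is also found on active promoters, where complexes of the MYST family such as those of Kat5 and Kat7 acetylate H4. In the large intestine the enhancer-rich genes of the absorptive epithelium lie beside those of muscle, connective tissue, nerve and immune cells, and a bulk library sums over all of them.

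Of the genes described below, 6 promoters show the difference between the marks and are given here as the 250 bases before the gene start from RefSeq (GRCm38.p6). Irak4, a kinase of innate immune signalling, had a region of both marks at its promoter (chr15:94543410-94543659, plus strand). Phgr1, a small protein of gut epithelium, had H3K18ac only (chr2:118772524-118772773, plus strand). So did the promoter of the intermediate filament gene Krt8, which has a separate region of H4K12ac within 1 kb of a gene end (chr15:102004343-102004592, minus strand) and the tight junction gene Cldn3 (chr5:134985964-134986213, plus strand). The zinc finger genes Zfp932 (chr5:109996260-109996509, plus strand) and Zfp456 (chr13:67375764-67376013, minus strand) had H4K12ac only. Capitals mark matches to 4 short motifs on either strand. They are the GC box, spelled GGGCGG and known as a site of Sp factors, the motif of ETS family factors, spelled CCGGAAG here, the box spelled CCAAT that NF-Y binds, and the core promoter motif spelled TATAAA.
Irak4: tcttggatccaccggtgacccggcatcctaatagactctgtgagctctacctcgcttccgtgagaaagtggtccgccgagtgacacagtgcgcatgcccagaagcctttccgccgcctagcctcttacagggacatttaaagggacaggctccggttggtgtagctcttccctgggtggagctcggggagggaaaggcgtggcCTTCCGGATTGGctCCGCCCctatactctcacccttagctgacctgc
Phgr1: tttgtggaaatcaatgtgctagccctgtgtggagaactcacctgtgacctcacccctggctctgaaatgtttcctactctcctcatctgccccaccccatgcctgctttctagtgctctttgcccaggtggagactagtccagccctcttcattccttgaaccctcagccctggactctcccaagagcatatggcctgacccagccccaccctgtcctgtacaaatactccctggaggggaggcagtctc
Krt8: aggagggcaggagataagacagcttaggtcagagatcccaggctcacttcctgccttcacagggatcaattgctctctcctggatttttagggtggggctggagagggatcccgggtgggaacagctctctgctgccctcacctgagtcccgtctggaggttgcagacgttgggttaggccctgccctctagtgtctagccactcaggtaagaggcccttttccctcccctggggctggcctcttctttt
Cldn3: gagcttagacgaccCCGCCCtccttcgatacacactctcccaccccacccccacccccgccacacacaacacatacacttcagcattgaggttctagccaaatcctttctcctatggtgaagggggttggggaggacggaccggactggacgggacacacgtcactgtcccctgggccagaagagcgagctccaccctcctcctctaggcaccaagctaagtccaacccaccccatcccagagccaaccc
Zfp932: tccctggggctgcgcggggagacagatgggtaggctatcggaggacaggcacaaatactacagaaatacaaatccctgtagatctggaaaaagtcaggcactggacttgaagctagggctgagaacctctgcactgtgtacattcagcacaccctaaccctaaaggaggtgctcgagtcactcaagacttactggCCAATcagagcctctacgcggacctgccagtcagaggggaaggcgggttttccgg
Zfp456: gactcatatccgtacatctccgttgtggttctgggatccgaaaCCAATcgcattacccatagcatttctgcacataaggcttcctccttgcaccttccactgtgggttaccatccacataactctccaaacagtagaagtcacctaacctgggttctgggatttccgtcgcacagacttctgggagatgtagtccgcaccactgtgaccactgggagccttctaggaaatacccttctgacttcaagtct

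Each library came as a list of peaks, here called rows, with a fold over the local background of the library and a p. All lists were cut at 300000 rows by the strongest p. Rows that overlapped were merged to regions, and a region counts for a mark where a row of both its replicates lies in it. There were 43739 such regions of H3K18ac and 42262 of H4K12ac, 76970 together. Most rows rested on few reads. The height of a row (its pileup, the reads stacked at the summit) was 1 in 72.1% and 52% of the rows of H3K18ac replicates 1 and 2 and in 52.8% and 12.8% of those of H4K12ac. The lowest background corresponded to at most 1.56 M, 2.65 M, 2.24 M and 3.77 M read ends in the same order, so H4K12ac replicate 2 was the deepest library and H3K18ac replicate 1 the shallowest.

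The rows with a pileup of 1 bear on every count below. In each list they all shared the lowest p, and the limit on the list kept them only for some chromosomes, taken in the order 1, 10, 11 and so on. H3K18ac replicate 1 held 216068 such tied rows on chromosomes 1 to 19 and none on X, and H3K18ac replicate 2 held 155849 on chromosomes 1 and 10 to 14. H4K12ac replicate 1 held 158414 on chromosomes 1 and 10 to 13, and H4K12ac replicate 2 held 38445 on chromosome 1 alone. With all rows, 23.2% of the H4K12ac-only regions lay on chromosome 1, and 7.39% did without the tied rows, against 7.23% of evenly spaced windows. Results are therefore given with all rows and without tied rows, and the genes named below were marked the same way in both unless it is said otherwise.

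**Figure D1:**
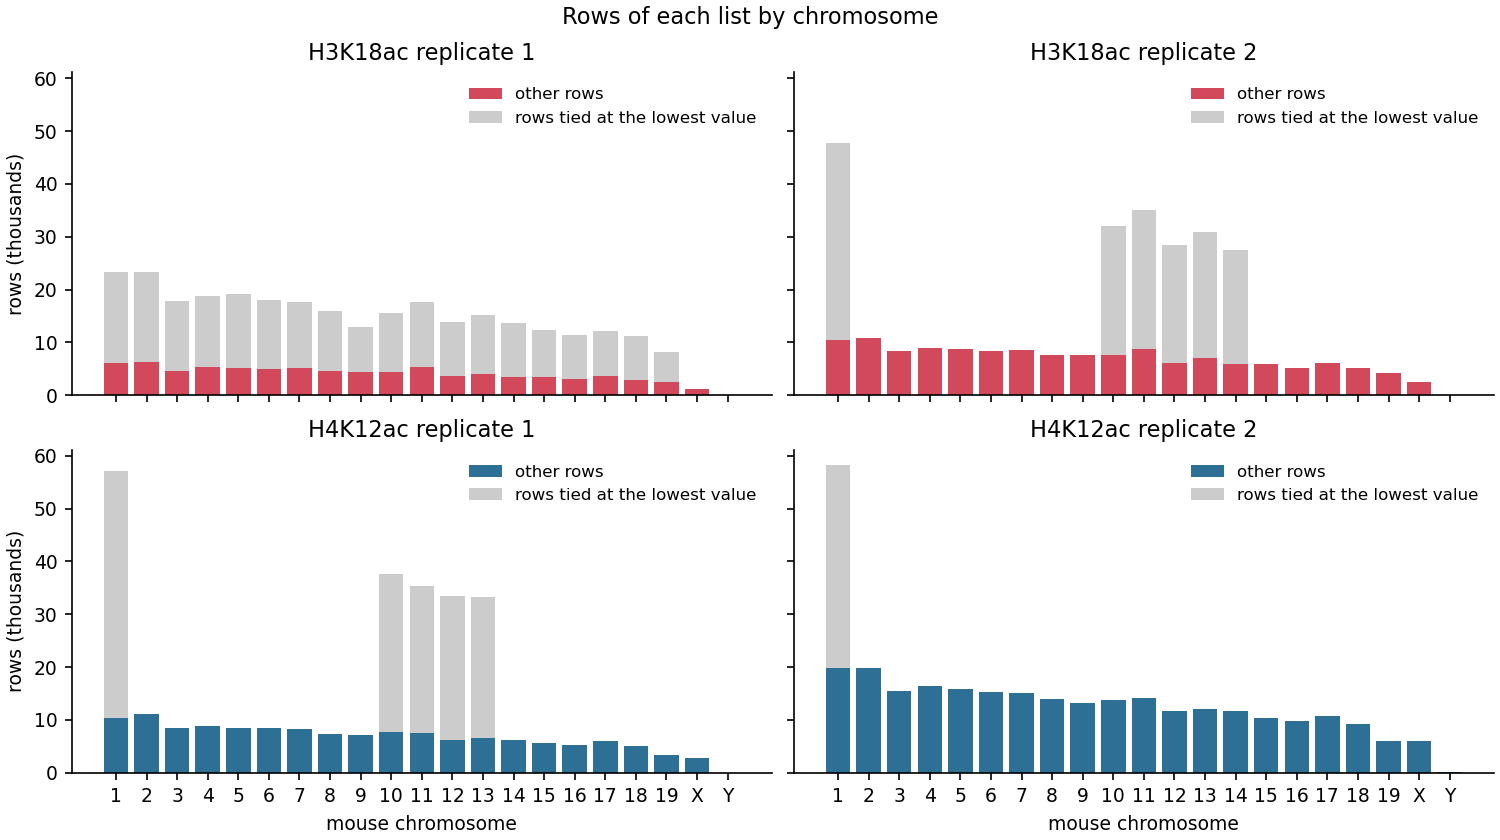
Rows of each of the 4 lists (in units of 1000 rows, y axis) by mouse chromosome (x axis), with tied rows in grey. Tied rows cover 19 chromosomes in H3K18ac replicate 1 and 1 chromosome in H4K12ac replicate 2, while untied rows (coloured) are found on every chromosome of all 4 lists, with 1177, 2466, 2809 and 6053 on X.

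H4K12ac replicate 1 stood apart from the other libraries at genes of absorptive epithelium and smooth muscle, and other libraries did so in other groups. With q below 0.05, 10, 10 and 8 of 22 absorptive epithelium genes had a row at a gene end in H3K18ac replicates 1 and 2 and H4K12ac replicate 2, and 0 did in H4K12ac replicate 1. Of all protein-coding genes, 12.4%, 16.9% and 31.9% did in the former and 12.6% in the latter. That library had rows at the ends of 15 of 18 smooth muscle genes with all rows, against 10, 10 and 8 in the others. With all rows, H3K18ac replicate 1 had rows at 11 of 14 genes of enteric neurons, glia and pacemaker cells, against 4, 7 and 5. H4K12ac replicate 2 had rows at 3 of 14 fibroblast and matrix genes, against 8, 9 and 8. In a bulk library, fewer cells of a type and less of the mark in each cell cannot be told apart. Epithelial genes were marked more often than genes of other organs in all 4 lists, and more often than genes at large mainly in the H3K18ac lists. Rows at gene ends covered 19, 19, 13 and 15 of the 22 epithelial genes and 7, 6, 5 and 8 of 23 genes of liver, pancreas, brain, testis, eye, heart and skeletal muscle. The epithelial shares were 86.4%, 86.4%, 59.1% and 68.2%, against 57.4%, 52.8%, 53.1% and 62.7% of all protein-coding genes, so that the H4K12ac lists were near the background. Alb, the liver albumin gene, had a row in H3K18ac replicate 1 only.

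The 2 marks shared a minor part of their regions. With all rows, 8435 regions were shared, 35047 had H3K18ac only and 33488 had H4K12ac only. Thus 19.9% of H3K18ac regions met an H4K12ac region and 20.8% of H4K12ac regions met an H3K18ac region. Without tied rows the counts were 6491 shared, 18982 H3K18ac-only and 23891 H4K12ac-only regions, with 25.9% and 22.0% overlapping. Replicates of a mark did not always overlap more than libraries of different marks. Among the 83772 strongest rows of each list, 21.9% and 22.5% of the regions of an H3K18ac replicate met the other, and 14.4% and 14.5% did for H4K12ac. Between the marks the 8 shares lay between 11.9% and 19.1%, and H4K12ac replicate 2 met H3K18ac replicate 1 (19.1%) more often than H4K12ac replicate 1 (14.5%). A region was called single-mark where the other mark lacked a row in at least 1 of its replicates. With no row of either replicate of the other mark allowed, 20078 H3K18ac-only and 20880 H4K12ac-only regions were left.

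Shared regions were wider than single-mark regions and, except with q below 0.05, lay at gene ends more often. Their median width was 574 bp without tied rows, against 366 bp for H3K18ac-only and 365 bp for H4K12ac-only regions. A shared region joins the rows of both marks, so its making favours width, and a wider region touches a gene end more readily. A gene end was taken as the 1 kb to either side of the first or last base of a gene. Without tied rows, 33.4% of shared regions touched a gene end, 43.2% lay in a gene body and 23.4% outside genes. Of evenly spaced windows of 400 bp, 7.16% touched a gene end, 42.4% lay in a body and 50.4% outside. By their midpoints, 10.7% of shared regions lay within 250 bp of a protein-coding gene start. Of H3K18ac-only and H4K12ac-only regions, 3.48% and 5.62% did.

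Among single-mark regions, those of H4K12ac lay at gene ends more often. Without tied rows, 23.3% of H4K12ac-only regions (95% Wilson interval 22.7 to 23.8%) and 17.3% of H3K18ac-only regions (16.8 to 17.8%) lay at a gene end. The intervals cover counting error only. Outside genes lay 24.7% of H4K12ac-only and 32.6% of H3K18ac-only regions, whereas the shares in gene bodies were 52% and 50.1%. With all rows the gene end shares were 17.4% and 14.2%, among the strongest 83772 rows 30.5% and 18.5%, and with q below 0.05 they were 42.3% and 18.6%, where shared regions had 33.8%. The difference was seen at gene starts. For protein-coding genes with a known strand, 12.8% of H4K12ac-only and 7.89% of H3K18ac-only regions lay at a start, and 1.95% and 1.47% lay at a far end and no start. In each distance class from 2 to 100 kb from a start, H3K18ac-only shares were the higher. From 20 to 50 kb lay 18.9% of H4K12ac-only and 20.3% of H3K18ac-only regions without tied rows, and over 100 kb away lay 31.0% and 30.7%, or 38.4% and 35.1% with all rows.

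The gene end difference rests on regions that both replicates hold. In whole lists, 10.5% and 11.2% of the regions of the H3K18ac replicates and 10.3% and 12.2% of those of the H4K12ac replicates lay at gene ends. The groups overlapped, and the difference of -0.37 percentage points had p = 1 in a two-sided exact permutation test over 6 assignments, whose smallest p is 0.333. Without tied rows the shares were 16.2% and 15.3% against 15.3% and 13.4%, a difference of 1.39 points in the opposite direction (exact permutation p = 0.667). For gene bodies the whole lists gave 50.9% and 50.2% against 48.1% and 52.1%, again overlapping (difference 0.46 points, exact permutation p = 1). Without tied rows the gene body shares of 51.8% and 50.8% in H3K18ac lists lay below the 55.0% and 53.5% in H4K12ac lists without overlap (difference -2.96 points, exact permutation p = 0.333, the smallest possible). With each mark resting on replicate 1 alone, the gene end share of H4K12ac-only minus H3K18ac-only regions was -0.35 points.

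**Figure D2:**
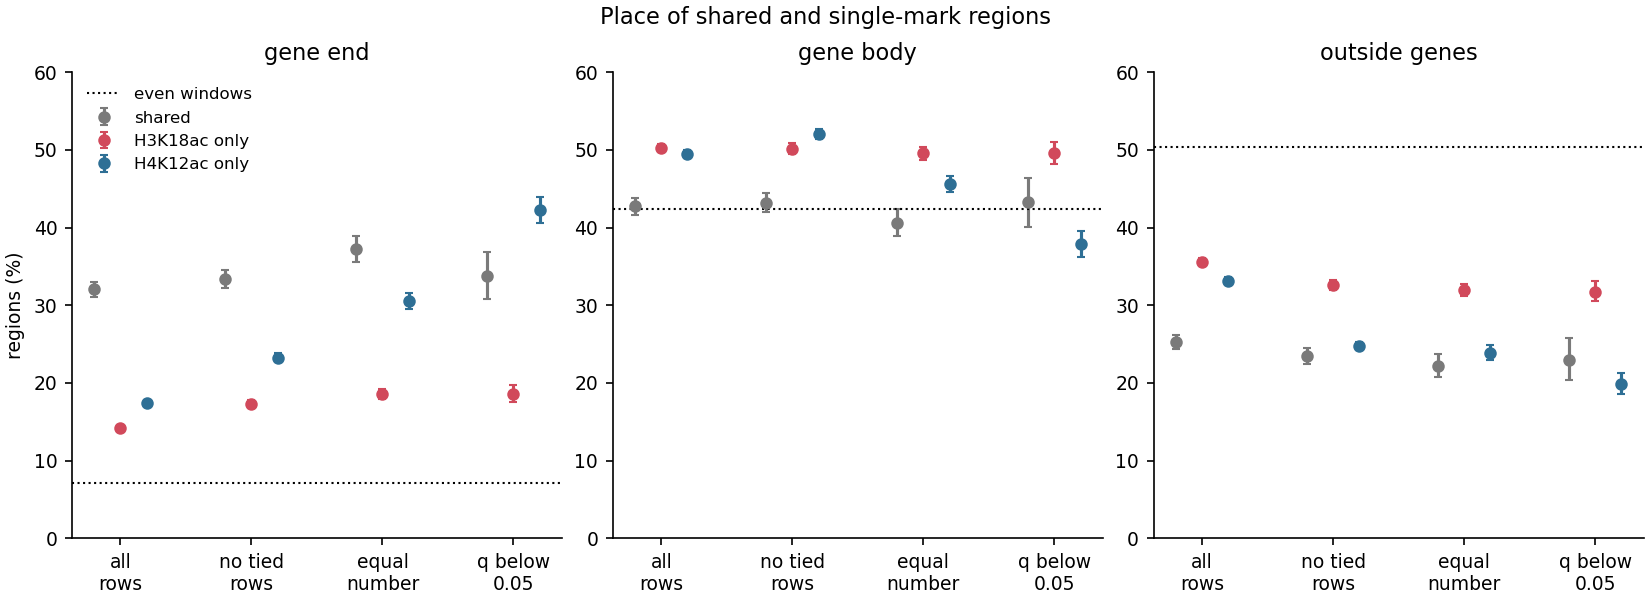
Share of shared, H3K18ac-only and H4K12ac-only regions (%, y axis) at gene ends, in gene bodies and outside genes under 4 choices of rows (x axis), with 95% Wilson intervals for counting error. The dotted line is the share of evenly spaced windows, and H4K12ac-only regions lie above H3K18ac-only regions at gene ends in all 4 choices.

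Both marks met at 2910 of 21887 protein-coding genes by their gene ends (13.3%), 2440 had H3K18ac only (11.1%) and 3174 had H4K12ac only (14.5%). Without tied rows there were 2241 genes with both (10.2%), 1753 with H3K18ac only (8.01%) and 3545 with H4K12ac only (16.2%). These shares are the background for every group of genes below. A gene with a single mark by this count can still have a row of the other mark in 1 list, or in both at different places. Of 4243 genes of all types with H3K18ac only and 4875 with H4K12ac only, 678 and 866 had no row of the other mark at a gene end.

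The strongest genes with both marks, ranked by the lowest percentile of p over the 4 lists, were Scarb2, Wls, Il7, Irak4 and Pus7l. Scarb2, a lysosomal membrane receptor, had folds of 10.1 and 10.5 for H3K18ac, above its folds of 8.42 and 9.30 for H4K12ac. Wls, which carries Wnt ligands to the cell surface, had 7.07 and 7.16 for H3K18ac and 6.37 and 13.5 for H4K12ac, so that the groups overlapped. Il7, a cytokine for lymphocytes that gut epithelium also makes, had 7.97 and 7.07 against 8.44 and 7.89. Irak4 and Pus7l, a pseudouridine synthase gene, are neighbours and shared their row, with 6.49 and 8.98 against 8.06 and 8.52. In none of these genes but Scarb2 did all folds of one mark lie above those of the other.

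The strongest genes with H3K18ac only were Gm52612, Phgr1, Nampt, Sprr2a2 and Unc93a2. Phgr1 had folds of 7.78 and 5.61 in the H3K18ac replicates against 2.99 and 3.26 in H4K12ac. Nampt, which makes a precursor of NAD, had 5.37 and 6.41 against 3.36 and 3.24. Sprr2a2, a small proline-rich protein of epithelia, had 5.80 and 7.25 against 4.31 and 3.36. The folds of the 2 marks did not overlap at these genes, which the ranking by mark favours. Their pileups were 14 and 11 at Phgr1, 5 and 7 at Nampt and 9 and 17 at Sprr2a2 in H3K18ac.

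The strongest genes with H4K12ac only were LOC115490200, Zfp456, Zfp932, Zfp937 and Zfp493, 4 of them zinc finger transcription factor genes. LOC115490200 had folds of 10.0 and 17.7 in the H4K12ac replicates, 5.37 in H3K18ac replicate 2 and no row in replicate 1. Zfp456 had folds of 10.2 and 13 in the H4K12ac replicates against 1.89 and 5.24 in H3K18ac. Zfp932 had 10.4 and 13 against 2.80 in H3K18ac replicate 1 and no row in replicate 2. Zfp937 had 9.45 and 12.1 against 2.72 and no row. Zfp493 had 8.60 and 10.7, with 2.72 in H3K18ac replicate 2 and no row in replicate 1. As with the H3K18ac-only genes, the ranking by mark favours such gaps. The pileups of these zinc finger genes were 12 to 25 in H4K12ac, and those of the 5 genes with H3K18ac only were 5 to 17 in H3K18ac. Without tied rows, Rsl1 (another zinc finger gene) and Mtrf1 (a release factor of mitochondrial translation) took the places of Zfp937 and Zfp493, and both counted as marked by both with all rows.

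**Figure D3:**
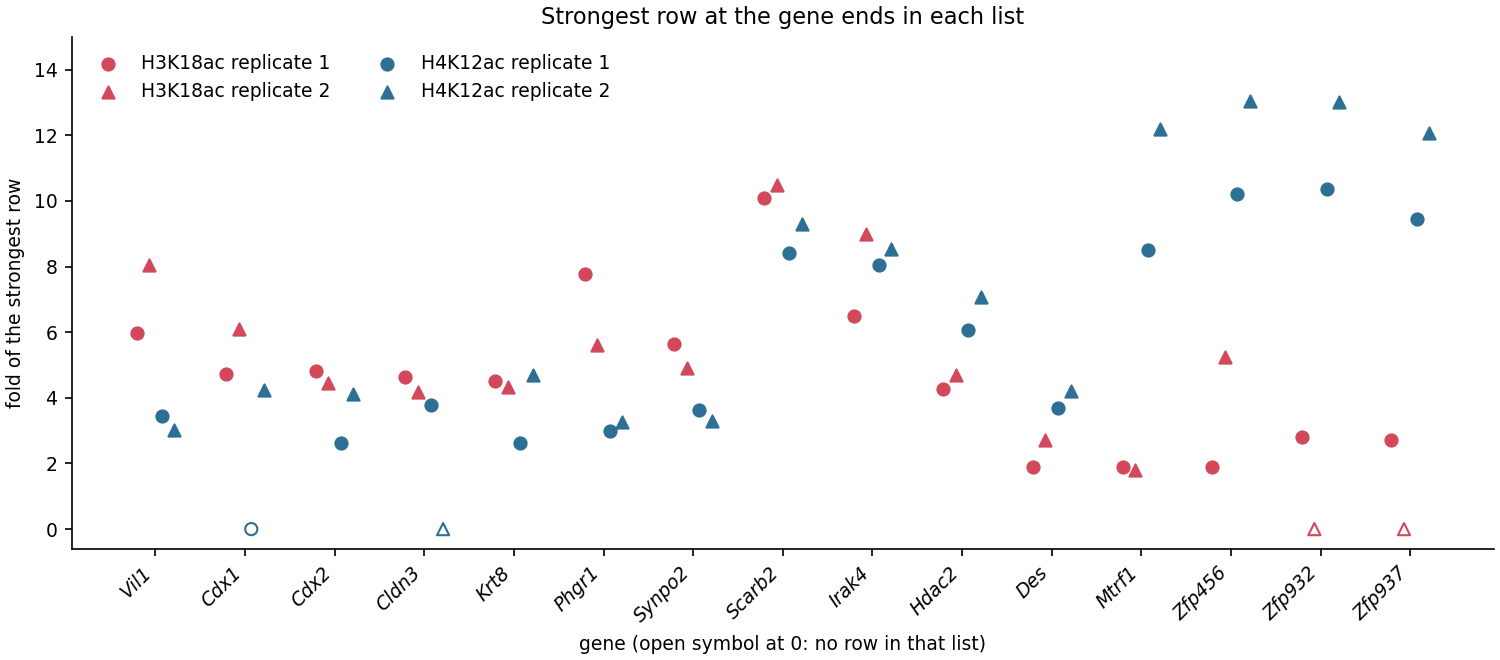
Fold of the strongest row at the ends of 15 genes (y axis) in each of the 4 lists (H3K18ac red, H4K12ac blue, circles replicate 1, triangles replicate 2), with open symbols at 0 where a list has no row. Both H3K18ac values lie above both H4K12ac values at Vil1, Cdx2, Phgr1, Synpo2 and Scarb2, and below them at Hdac2, Des, Mtrf1 and Zfp456. With a missing row taken as 0, they also lie above at Cdx1 and Cldn3 and below at Zfp932 and Zfp937. Phgr1, Mtrf1 and the zinc finger genes were picked by a ranking by mark, which favours such gaps.

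By tissue function, the absorptive epithelium was the group most often marked by H3K18ac alone. Of its 22 genes, 7 (31.8%) had H3K18ac only, 3 had both and 1 had H4K12ac only, with all rows and without tied rows alike. Of the 7, only Car4 had no row of H4K12ac at a gene end in either list. The 7 were Car4, Cdx1, Cdx2, Ceacam1, Cldn3, Cldn7 and Epcam, the 3 were Hnf4g, Krt8 and Vil1, and the 1 was Slc9a3, the sodium-proton exchanger of the apical membrane. With equal numbers of strongest rows, 7 of 22 had H3K18ac only against 8.07% of all protein-coding genes, and none had both (5.39%) or H4K12ac only (8.85%). With q below 0.05, 6 of 22 had H3K18ac only (Cdx1, Cdx2, Cldn3, Hnf4g, Krt8 and Vil1) against a background of 2.94%, and none had both (1.35%) or H4K12ac only (6.04%). H4K12ac replicate 1 had no row at any of the 22 genes under that threshold, so no gene could have an H4K12ac region and the split is fixed by that library.

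Vil1, which bundles the actin of the brush border (chr1:74409384-74435560, GRCm38.p6), had folds of 5.99 and 8.06 in H3K18ac and 3.45 and 3.03 in H4K12ac, with no overlap. Cdx2, a homeobox factor that defines intestinal epithelium (chr5:147300900-147307249), had 4.81 and 4.46 against 2.63 and 4.13. Krt8 (chr15:101996711-102004342) had 4.52 and 4.33 against 2.62 and 4.70, so that H4K12ac replicate 2 was the highest of all. Cdx1, a paralog of Cdx2, had 4.72 and 6.09 for H3K18ac, no row in H4K12ac replicate 1 and 4.24 in replicate 2. Car4, a carbonic anhydrase of the colon surface, had 4.47 and 3.51 for H3K18ac and no row in either H4K12ac list. Krt20 had a row in both H3K18ac lists (3.96 and 2.87) and none for H4K12ac, but the rows did not overlap. Slc26a3, the chloride exchanger of the colon, and Car1, a carbonic anhydrase, had rows in 2 and 3 lists and no region of either mark at a gene end, but their bodies held 4 and 2 H3K18ac-only regions without tied rows, and that of Car1 also 1 shared region. Hnf4a, a nuclear receptor of the epithelium, had rows in all 4 lists (3.04 and 3.36 against 2.76 and 3.79) that did not meet within a mark at a gene end.

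The epithelial count fell, as did the background, where either H4K12ac library was left out. Without tied rows and without H4K12ac replicate 1, 2 of the 22 genes had H3K18ac only (9.09%), 8 had both (36.4%) and 7 had H4K12ac only (31.8%), while the background was 1.98%, 16.3% and 45.7%. Without H4K12ac replicate 2 in its place, the counts were 4, 6 and 6, against a background of 4.14% for H3K18ac only, 14.1% for both and 33.7% for H4K12ac only. The epithelium did not lead the tissue groups in H3K18ac only then. Without H4K12ac replicate 1, smooth muscle had the larger share (11.1%). Without replicate 2, goblet cell genes had the same share as the epithelium (18.2%). Without either H3K18ac library the epithelial count rose to 15 of 22 (68.2%), against 26.1% of all genes without replicate 1 and 19.5% without replicate 2. List by list, epithelial genes had a row more often in both H3K18ac lists than in either H4K12ac list under each choice of rows. Among the strongest 83772 rows of each list, epithelial genes had a row in 18 and 13 cases for H3K18ac and in 5 and 9 for H4K12ac, whereas 35.4% and 33.4% against 30.9% and 39.7% of all protein-coding genes did.

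The other epithelial lineages were counted in the same way at gene ends. Of 11 goblet cell genes, Atoh1, the factor of the secretory lineage, and Tff3, a peptide secreted with mucus, had H3K18ac only, Fcgbp, a mucus protein, had H4K12ac only, and none had both. Muc2, the main gel-forming mucin, had 1 row in 1 list of each mark and no region. Of 12 crypt and stem cell genes, Lgr5, a receptor of crypt stem cells, and Smoc2 had H3K18ac only, Prom1 had both and Sox9 had H4K12ac only. For the crypt genes these are 16.7%, 8.33% and 8.33%, against a background of 8.01%, 10.2% and 16.2%. Ascl2 had H3K18ac only with all rows and no region without tied rows. Lgr5 had folds of 2.69 and 4.42 in H3K18ac (pileups 2 and 4), no row in H4K12ac replicate 1 and 3.91 in replicate 2 (pileup 4). Prom1 had 4.51 and 4.61 against 5.07 and 4.09, which overlap. At Sox9, called H4K12ac only, both H3K18ac folds (3.17 and 3.93) lay above both H4K12ac folds (2.72 and 2.62). The pileups there were 3 and 5 against 2 and 2. Of 10 enteroendocrine and tuft cell genes, only Trpm5, a cation channel of tuft cells, had a region at a gene end (H4K12ac only), and Chga had rows in 3 lists and no region there.

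Smooth muscle genes stood near the background with all 4 libraries. Without tied rows, 2 of 18 genes had H3K18ac only (Srf and Synpo2), 1 had both (Smtn) and 3 had H4K12ac only (Des, Flna and Tpm1), which are 11.1%, 5.56% and 16.7%. With all rows Des had both marks and Lmod1 joined the genes with H4K12ac only. Without tied rows and without H4K12ac replicate 1, 2 of 18 had H3K18ac only (11.1%, against 1.98% of all genes). With H4K12ac only there were 7 (38.9%, against 45.7%). Without H4K12ac replicate 2 these counts were 0 and 9 (50%, against 33.7%). Without H3K18ac replicate 1 or 2, 1 and 3 had H4K12ac only, against 6.87% and 10.5%. Des, the intermediate filament of muscle (chr1:75360292-75368579), had folds of 3.68 and 4.20 in H4K12ac against 1.89 and 2.72 in H3K18ac. Synpo2, an actin-binding protein of muscle Z-discs, went the other way, with 5.65 and 4.91 in H3K18ac against 3.63 and 3.30. Neither gene's groups overlapped, but the folds rested on few reads. At Des the pileups were 3 and 4 in H4K12ac against 1 (a tied row) and 2 in H3K18ac. At Synpo2 they were 7 and 7 in H3K18ac against 3 and 3 in H4K12ac. Acta2, the smooth muscle actin, had rows in the H4K12ac lists only (3.54 and 3.10), and Myh11 had 3.49 and 2.96 in those lists and a tied row of 1.89 in H3K18ac replicate 1. Neither reached a region of both replicates at a gene end. List by list and without tied rows, 3 and 7 muscle genes had a row for H3K18ac and 12 and 8 for H4K12ac, which is 16.7% and 38.9% against 66.7% and 44.4%. Of all protein-coding genes, 35.4% and 45.6% had one for H3K18ac, and 47.8% and 62.0% for H4K12ac. Only H4K12ac replicate 1 thus lay above the share of all genes.

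Among 23 immune cell genes, none had both marks. Without tied rows, Cd3e of the T cell receptor and Spi1, the PU.1 factor of myeloid and B cells, had H3K18ac only. Cd79b, Csf1r, H2-Ab1 and Pax5 had H4K12ac only, genes of B cells, macrophages and antigen presentation. With all rows Lyz2 joined the first and Ikzf1 the second. Csf1r, the macrophage receptor, was the 1 immune gene left with q below 0.05, with folds of 4.25 and 4.30 in H4K12ac, 3.36 in H3K18ac replicate 1 and no row in replicate 2. The shares of 8.70% and 17.4% without tied rows were close to the background of 8.01% and 16.2%. Ptprc, the common leukocyte antigen, had a row in 1 list of each mark and Cd79a likewise, and neither had a region at a gene end.

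Genes of connective tissue and vessels had few regions at gene ends, and those of nerve and pacemaker cells were near the background. Of 14 fibroblast and matrix genes, Dpt had H3K18ac only without tied rows, and Fn1 and Gli1 joined it with all rows, while Col1a1 had 1 tied row in H4K12ac replicate 1. Of 12 endothelial genes none had a region at a gene end without tied rows, and Erg and Kdr had H3K18ac only with all rows. Among 14 genes of enteric neurons, glia and pacemaker cells, Ret had both marks, Kit, the receptor of pacemaker cells, had H3K18ac only, and S100b and Uchl1 had H4K12ac only. These are 7.14%, 7.14% and 14.3% of the group, against 10.2%, 8.01% and 16.2% of all protein-coding genes. S100b had both with all rows. Sox10 had 1 tied row in H3K18ac replicate 1.

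By regions without tied rows, housekeeping genes stood near the background, but their counts moved with the rows and libraries used. Of 14 housekeeping genes without tied rows, Eef1a1, Gapdh and Ppia had H4K12ac only, B2m had both and none had H3K18ac only. With equal numbers of strongest rows or with q below 0.05, 0 of 14 had H4K12ac only. Without tied rows there were 0 and 1 without H3K18ac replicate 1 or 2, against 6.87% and 10.5% of all genes. Without H4K12ac replicate 1 or 2 there were 12 and 8, against 45.7% and 33.7%. In the single lists of H3K18ac and then H4K12ac, 28.6%, 71.4%, 64.3% and 92.9% of the group had a row. Of all protein-coding genes, 35.4%, 45.6%, 47.8% and 62.0% did. With all rows Polr2a joined the genes with H4K12ac only and Sdha had H3K18ac only. Gapdh had folds of 3.10 and 5.05 in H4K12ac and 3.83 and 3.93 in H3K18ac, so the marks overlapped in level at a gene called single-mark. Actb had rows in 1 list of each mark. Of 23 genes of other organs, Acta1 had both and Mylpf had H4K12ac only, both of skeletal muscle.

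Of 19 genes of enzymes and readers of histone acetylation, 4 (21.1%) had both marks at a gene end, with all rows and without tied rows. Of all protein-coding genes, 13.3% and 10.2% did. The 4 genes were the deacetylase Hdac2, the bromodomain genes Brd2 and Brd9, and Ep300. Hdac2 had folds of 4.25 and 4.70 in H3K18ac against 6.06 and 7.07 in H4K12ac. Ep300 had 4.66 and 4.31 against 2.76 and 3.28 and was in reverse order. Crebbp, Hdac3 and Kat2a had H4K12ac only and none had H3K18ac only, against 16.2% and 8.01% of all protein-coding genes without tied rows. Without tied rows and without H3K18ac replicate 1 or 2, 5 and 3 of 19 had H3K18ac only (26.1% and 19.5% of all genes). With H4K12ac only there were 3 and 0 (6.87% and 10.5% of all genes). Without H4K12ac replicate 1 or 2, none had H3K18ac only and 12 and 8 had H4K12ac only (45.7% and 33.7% of all genes). Hat1 and Kat7 had rows in 3 lists each and no region of either mark at a gene end.

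**Figure D4:**
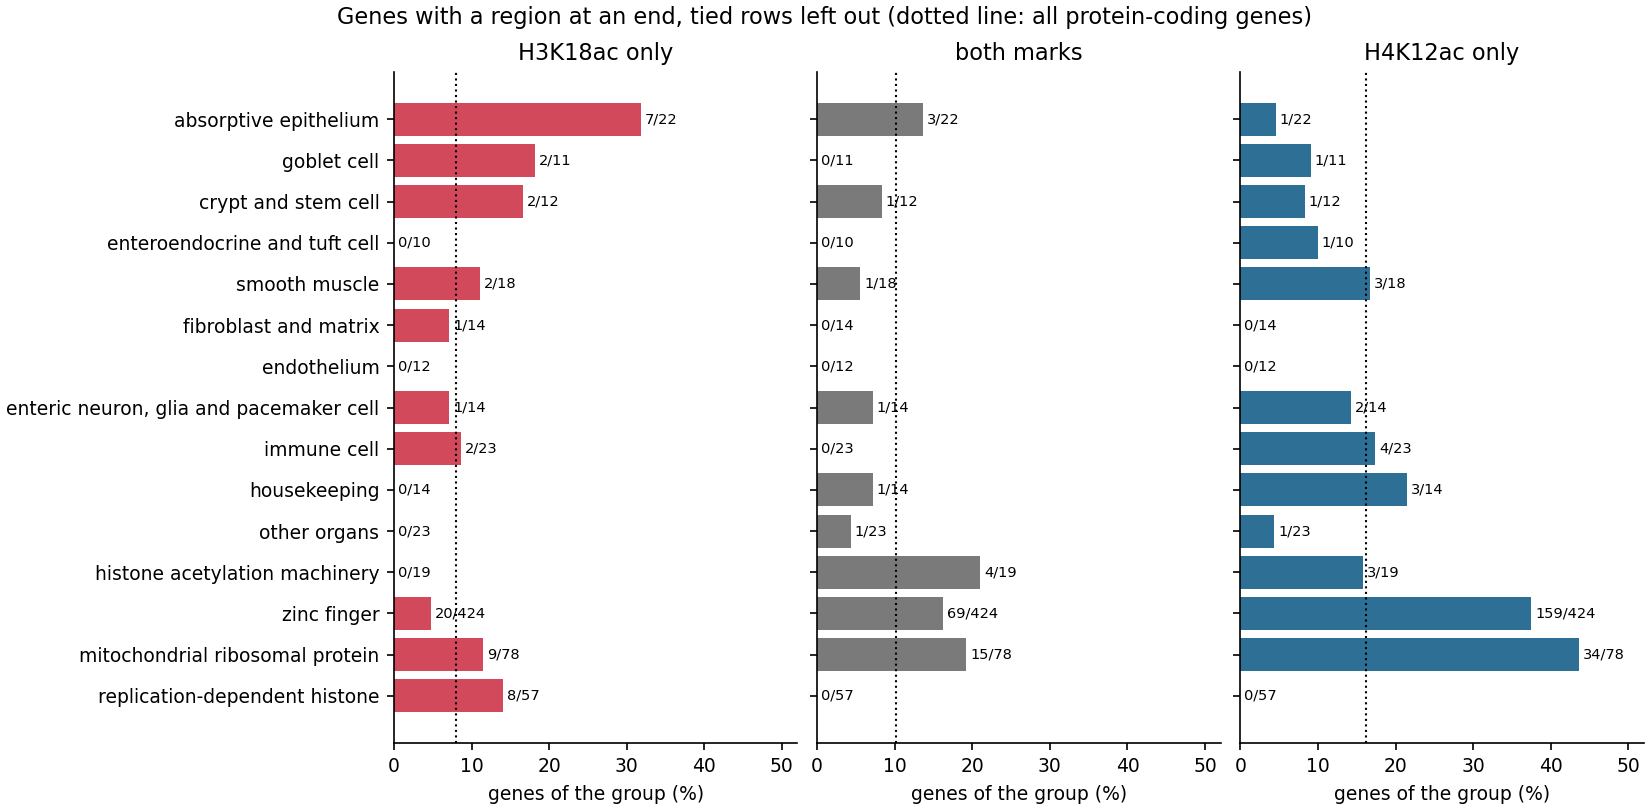
Percent of the genes of each group (x axis) with H3K18ac only, both marks or H4K12ac only at a gene end without tied rows, with counts beside the bars and the share of all protein-coding genes as a dotted line. Among the groups shown, the longest H3K18ac-only bar is absorptive epithelium (7 of 22). The longest H4K12ac-only bars shown are mitochondrial ribosomal protein (34 of 78) and zinc finger genes (159 of 424).

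Since zinc finger genes led the H4K12ac-only genes, gene families were counted by their symbols, a choice made after these values had been seen. Of 424 genes named Zfp, Zscan or Zkscan, 159 (37.5%) had H4K12ac only without tied rows, 69 had both (16.3%) and 20 had H3K18ac only (4.72%). With q below 0.05, 108 of the 424 (25.5%) had H4K12ac only and 3 had H3K18ac only, against 6.04% and 2.94% of all protein-coding genes. List by list among the strongest 83772 rows, 155 and 185 of them had a row for H3K18ac and 229 and 275 for H4K12ac, and the lists of the marks did not overlap under any of the 4 choices of rows. With H4K12ac resting on replicate 2 or 1 alone, 58.0% and 51.7% of the family had H4K12ac only, against 45.7% and 33.7% of all genes. With H3K18ac resting on replicate 2 or 1 alone, the shares were 17.5% and 28.1% against 6.87% and 10.5%. Many zinc finger genes lie in clusters of similar copies, so the placement of reads between neighbours may be uncertain, which was not tested.

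Mitochondrial ribosomal protein genes were marked by H4K12ac alone in a like share. Of 78 named Mrpl or Mrps, 34 (43.6%) had H4K12ac only without tied rows, 15 had both (19.2%) and 9 had H3K18ac only (11.5%). Of all protein-coding genes, 16.2%, 10.2% and 8.01% did. Without H3K18ac replicate 1 or 2 the share with H4K12ac only was 21.8% and 30.8%, against 6.87% and 10.5% of all genes. Without H4K12ac replicate 1 or 2 it was 60.3% and 53.8%, against 45.7% and 33.7%. Genes of cytosolic ribosomal proteins stayed nearer to the background with H4K12ac only (20 of 98, 20.4%, against 16.2%) and with both (10, 10.2%, against 10.2%). With H3K18ac only there were 14 (14.3%, against 8.01%). With all rows, 21 of the 98 (21.4%, against 11.1%) had H3K18ac only and 15 had H4K12ac only. Of 49 Nduf genes of respiratory complex I, 17 had H4K12ac only (34.7%), 13 had both (26.5%) and 8 had H3K18ac only (16.3%). Each of these shares lay above the background of 16.2%, 10.2% and 8.01%. Splicing factor genes named Srsf or Sf3 had the larger share with H4K12ac only, 9 of 20 (45%). Of these 20, 1 had both (5%) and 3 had H3K18ac only (15%). Of 57 replication-dependent histone genes, none had both marks or H4K12ac only without tied rows and 8 (14.0%) had H3K18ac only. In single lists, however, 17 and 24 of the 57 had a row of H4K12ac, against 15 and 25 for H3K18ac, so the rows of the H4K12ac replicates lay at different histone genes or places. Of 1110 olfactory receptor genes, which are silent in gut, 1 had both, 6 had H3K18ac only and 13 had H4K12ac only.

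Over the whole gene and 1 kb around it, single-mark regions of H3K18ac reached 16 of the 22 absorptive epithelium genes without tied rows (72.7%), against 25.9% of protein-coding genes, and held 31 regions. Single-mark regions of H4K12ac reached 9 of the 22 (40.9%), against 40.2%. Crypt and stem cell genes were also reached often by H3K18ac-only regions, 7 of 12 (58.3%), and by H4K12ac-only regions in 6 of 12 (50%). With all rows, H3K18ac-only regions reached 9 of these 12 (75%), against 72.7% of the epithelial and 37.1% of protein-coding genes. Without tied rows the counts were 6 and 8 of 18 in smooth muscle and 2 and 5 of 12 in endothelium. In the genes of the acetylation machinery they were 3 and 11 of 19. Long genes can hold more regions, and the groups differ in length.

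Where a region had a row in all 4 lists, its folds could be compared between the marks. With all rows, 62 of 8435 regions were higher in H3K18ac (0.735%) and 116 were higher in H4K12ac (1.38%) by limma at an adjusted p below 0.05. Without tied rows the counts were 19 of 6491 (0.293%) and 51 (0.786%). The direction differed between gene ends and gene bodies. Of the 116 regions higher in H4K12ac, 76 lay at a gene end, and of the 62 higher in H3K18ac, 7 did. In gene bodies 38 were higher in H3K18ac and 23 in H4K12ac, and outside genes 17 and 17. Without tied rows, 4 regions outside genes were higher in H3K18ac and 9 in H4K12ac. The median log2 difference, H3K18ac minus H4K12ac, was -0.16 at the 2703 gene end regions, 0.09 at the 3604 gene body regions and 0.13 at the 2128 outside genes. Without tied rows the medians were -0.16, 0.08 and 0.13. Calls rested on both H3K18ac libraries. Without either of them, none passed (650 and 707 regions had an unadjusted p below 0.05, against 1264 with all 4), and without H4K12ac replicate 1 or 2 there were 10 and 11 higher in H3K18ac and 17 and 23 higher in H4K12ac. limma found no spread between regions beyond its trend with the mean, so that all regions of a mean share 1 estimate of the spread.

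The region most in favour of H4K12ac lay at an end of Mtrf1 (chr14:79397703-79398266). Its folds were 8.51 and 12.2 in H4K12ac and 1.89 and 1.81, both tied rows, in H3K18ac, with a log2 difference of -2.22 (SE 0.36, limma adjusted p = 5.58e-06). Next came chr13:67552860-67553335 at Zfp748 and 9430065F17Rik, with 11.7 and 11.7 against 1.89 and 3.63. At Mtif2, an initiation factor of mitochondrial translation (chr11:29526009-29526504), the folds were 5.36 and 11.6 against 1.89 and 1.81. Arl14ep (chr2:106973846-106974707) had 6.82 and 12.3 against 1.89 and 2.72, and Zfp389 (chr13:21506180-21506799) had 10.9 and 14.9 against 2.83 and 3.63. All 5 lay at gene ends. Zfp389, the fifth of these, led without tied rows (log2 difference -1.86, SE 0.34, limma adjusted p = 0.00131). Zinc finger gene ends held 86 of the 8435 shared regions (1.02%), 17 of the 116 higher in H4K12ac and none of the 62 higher in H3K18ac. At 79 of the 86 the difference was negative, as it was at 64.3% of all shared regions at gene ends.

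The regions most in favour of H3K18ac lay away from gene ends. The first, chr5:64636111-64636748, lay outside genes, with folds of 9.98 and 9.05 in H3K18ac against 2.76 and 2.60 (log2 difference 1.91, SE 0.35, limma adjusted p = 0.000193). The second lay in the body of Septin11, a cytoskeletal GTPase (chr5:93128595-93129264), with 6.52 and 11.2 against 2.58 and 3.26. Gtf2h2 (chr13:100463471-100464021) and Mboat1 (chr13:30203054-30203491) held the next in their bodies, with 6.97 and 7.72 against 2.62 and 2.49, and 6.04 and 7.96 against 2.62 and 2.52. The fifth, chr5:46578533-46579575, again lay outside genes, with 7.65 and 8.46 against 2.76 and 2.62. The first, second and Gtf2h2 regions were also among the 5 leading regions without tied rows.

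**Figure D5:**
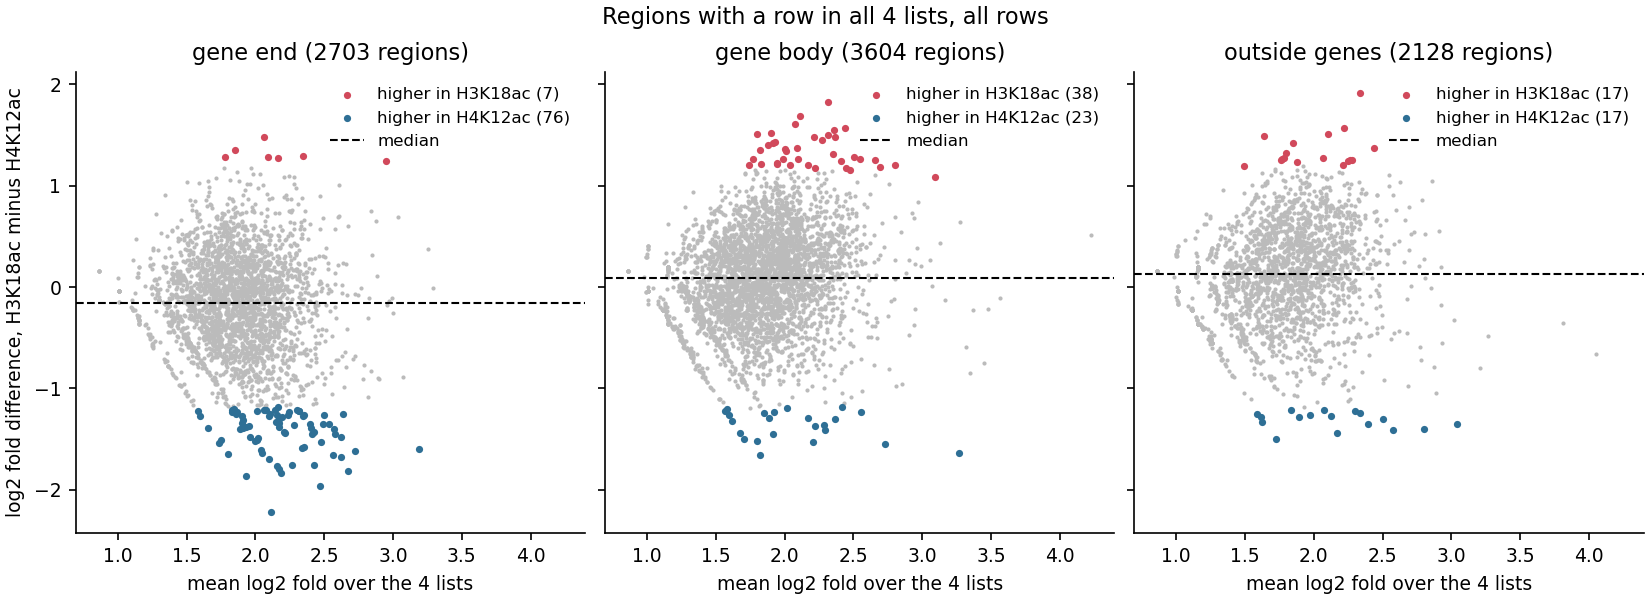
Log2 fold difference between the marks (H3K18ac minus H4K12ac, y axis) against the mean log2 fold (x axis) for regions with a row in all 4 lists, by place, with regions past a limma adjusted p of 0.05 coloured and the median dashed. At gene ends 76 regions are higher in H4K12ac and 7 in H3K18ac, in gene bodies 23 and 38, and outside genes 17 and 17.

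The row with the lowest p of each list had a row of all 4 lists at its place. A row in Gm4827 (chr16:50030394-50030806) led both H3K18ac lists by p, with folds of 19.6 and 19.8 and pileups of 38 and 43, and rows there had 14.0 and 22.9 in H4K12ac. A row at 2700054A10Rik (chr17:13552103-13553202) led both H4K12ac lists by p, with folds of 10.4 and 10.2 and pileups of 111 and 355. In H3K18ac it had folds of 8.72 and 9.83 and pileups of 46 and 60, the highest of those lists. By contrast, a row in Mical2 of rank 4 by p in H3K18ac replicate 2 had folds of 11 and 12.9 in H3K18ac, no row in H4K12ac replicate 1 and 5.99 in replicate 2.

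Marked promoters of all 3 classes were richer in GC and in CG pairs than promoters with neither mark. Of 32851 RefSeq promoters of 27025 genes, 1380 had both marks without tied rows, 1517 had H3K18ac only and 2612 had H4K12ac only. In the 250 bases before the start the median GC content was 59.6%, 59.2% and 58.8% in these classes and 50.8% in promoters with neither. The median number of CG pairs was 15, 14 and 15 against 4. The GC box (GGGCGG or its reverse) was in 53.7%, 53.5% and 52.8% against 32.7% of all promoters. The ETS motif (CCGGAAG, either strand) was in 19% of H4K12ac-only promoters, 14.9% of those with both, 11.9% of those with H3K18ac only, 5.08% of those with neither and 6.91% of all. The AP-1 motif (TGANTCA) was in 3.83% of H4K12ac-only and 6.66% of H3K18ac-only promoters, against 6.75% of all, and the TATA motif (TATAAA) in 5.82% and 7.12%, against 12.4%. CCAAT, which both printed zinc finger promoters hold, was in 45.2% of the zinc finger promoters with H4K12ac only and in 45.7% of all zinc finger promoters, against 33.8% of all promoters. Of the printed promoters, Irak4 has 14 CG pairs, Cldn3 has 9 and Phgr1 has 0. A match of letters is no evidence that a factor binds there.

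Butyryl marks at the same residues, H3K18bu and H4K12bu, were mapped in large intestine of mice given 5% arabinoxylan, with 2 libraries each. By the labels they differ from the acetyl libraries in diet, so mark and diet cannot be told apart. Shared acetyl regions without tied rows held a row of the 4 butyryl lists in 49.8%, 45.9%, 45.2% and 60.5% of cases (H3K18bu replicates 1 and 2, H4K12bu replicates 1 and 2). H3K18ac-only regions did in 27.3%, 24.2%, 19.2% and 29.1%, and H4K12ac-only regions in 11.4%, 9.72%, 12.9% and 20.7%. Zinc finger gene ends had a row in 28.1% and 24.8% of the H3K18bu lists and in 51.9% and 65.6% of the H4K12bu lists, where all protein-coding genes had 26.8% and 23.6% against 31.8% and 45.7%. Absorptive epithelium gene ends had rows in 15 and 18 of 22 cases in both H3K18bu and H4K12bu, beside those unequal shares of all genes. The X chromosome of these male mice held 2.36% of H4K12ac-only and 1.35% of H3K18ac-only regions without tied rows, and 6.31% of evenly spaced windows.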

How the data were processed

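Libraries were grouped by the mark and replicate number in their labels. The submitters' processing notes name bcl2fastq 2.17.1, cutadapt 1.9.1, Bowtie2 2.3.1, MACS2 2.1.0 and, for mouse, mm10, the UCSC name of the assembly behind the GRCm38.p6 gene table of RefSeq used here (49943 genes, 21887 of them protein-coding). The authors called peaks per library with no control and no pooling, at p = 0.01 with a limit of 300000, and removed artifact regions. They deposited the fold (a ratio of pileup and background, each with 1 added) and the −log10 p and −log10 q of a Poisson test. The lists hold no counts, so neither a count model nor DiffBind could be run, and the study's butyryl comparison is not repeated.

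The pileup was solved from fold and p for every row of the 4 lists (tolerance 0.01) and recovered for 100% of 2666 simulated rows. Read ends were taken from the lowest background, a 73 bp extension and a genome of 1.87 Gb, and are upper limits. Interval counts equalled those of bedtools 2.31.1 in 12 of 12 simulated comparisons. Overlap meant 1 bp. Tests were exact permutation tests over libraries and limma 3.58.1 (R 4.3.3) on quantile-normalized log2 folds with Benjamini-Hochberg adjustment, which recovered 199 of 200 regions changed by 2 on the log2 scale among 8435 simulated ones, with 10 false calls. The p-values measure the spread between these libraries only.

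The gene lists and the rule for naming genes were chosen with earlier results of these data known. Named were the fixed markers, up to 3 members per list with rows in all 4 lists and the highest lowest percentile, list genes of a single mark, the 5 leading genes per class and the 5 leading regions per direction. Families were added after seeing the values. Alternatives were other choices of rows, overlap, windows, genes and fits, and leaving out libraries. A gene among the fixed markers is not reported here.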

Additional observations from a re-analysis of the deposited data

How the results depend on the processing

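The lists hold few reads, so absence of a row is not absence of a mark, and most counts moved with the rows used. The sign of the whole-list gene end difference (H3K18ac minus H4K12ac) turned to 1.39 points without tied rows or with a pileup of at least 2 and to 0.246 with a 3 kb window, and without a replicate it ran from -1.01 to 0.266. The gene body difference turned to -2.96 points without tied rows or with a pileup of at least 2, -1.16 with q below 0.05, -1.44 with equal numbers of strongest rows and -0.430 over protein-coding genes only, and without a replicate it ran from -1.94 to 2.85. The cause was not tested. Leaving out a replicate leaves 1 list per mark, so that every row counts as a region.

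Shared, H3K18ac-only and H4K12ac-only regions numbered 948, 5053 and 3382 with q below 0.05, and 3114, 14279 and 8027 with equal numbers of strongest rows. H3K18ac-only regions numbered 18982 without tied rows or with a pileup of at least 2. With no row of the other mark allowed, 20078 H3K18ac-only and 20880 H4K12ac-only regions were left. Without a replicate the ranges were 32944 to 43866, 249911 to 263762 and 250863 to 263881. Over genes of all types, those with both marks, H3K18ac only and H4K12ac only numbered 391, 1054 and 1709 with q below 0.05 and 1548, 2766 and 2596 with equal numbers of strongest rows. At gene starts alone they numbered 2571, 2426 and 2957. Genes with both numbered 6678 with a 3 kb window. Those with a single mark numbered 678 and 866 with no row of the other mark and 2440 and 3174 among protein-coding genes. Without a replicate the ranges were 12750 to 14143 for both, 6173 to 9996 for H3K18ac only and 7621 to 9691 for H4K12ac only. The gene end difference between H4K12ac-only and H3K18ac-only regions was 5.98 points without tied rows or with a pileup of at least 2, 23.7 with q below 0.05, 12.0 with equal numbers, 1.78 with no row of the other mark, 1.91 with a 3 kb window and 2.50 at starts, and without a replicate it ran from -0.347 to 1.21.

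By limma, regions higher in H3K18ac and H4K12ac numbered 19 and 51 without tied rows or with a pileup of at least 2 and 6 and 12 with q below 0.05, and median centring gave 182 higher in H4K12ac. Without 1 library they ran from 0 to 11 and from 0 to 23, with the remaining lone library assumed to vary like the others. limma without the same replicate of both marks was not run, since no residual degrees of freedom remain. With a replicate block the whole-list differences were -0.371 and 0.456 points (exact permutation p = 1 for each), and limma gave 50 and 96 regions with all rows and, chosen after seeing the data, 17 and 48 without tied rows. Libraries of the same number did not deviate together (correlation -0.021 across 8435 regions), and the numbers were not taken as pairs. Since most rows rested on few reads, that value cannot tell whether such libraries came from the same animal.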
